A study of Mus musculus with 5 samples.

Results

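The plasmacytoid dendritic cell signature described here holds 10 genes chosen by name: Klk1, Ly6d, Pacsin1, Cox6a2, Atp1b1, Lag3, Smim5, Upb1, Mzb1 and Runx2. All 10 were found by symbol among 18051 genes of the count table, and all 10 passed the filter on low counts, which kept 12046 genes for testing. RNA came from thymic dendritic cells of C57BL/6J mice aged 6 to 8 weeks, sorted as CD45+, MHC class II+ and CD11c+. The untreated group had 2 libraries, and the group taken 4 days after total body irradiation (TBI) had 3. Titles and treatment tags give day 4, though a protocol note also writes another day for these thymi, and the radiation dose is not given in the sources used here. Thymi were pooled before sorting. Nothing in the labels ties a replicate to its own pool of thymi, and p-values therefore measure only the spread between these libraries, which may be technical. The libraries are bulk RNA of all cells in that gate and not of sorted plasmacytoid cells, and levels are shares of each library. A smaller number of these cells, less RNA per cell and more RNA of other cells therefore cannot be told apart in any value below.

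Plasmacytoid dendritic cells are dendritic cells of round, plasma cell-like shape that release type I interferon when the endosomal receptors TLR7 and TLR9 meet viral nucleic acid. The transcription factor TCF4 (E2-2), which binds E-box sequences, maintains their identity, and SPIB, IRF8, BCL11A and RUNX2 act beside it. In the thymus they can carry antigen from the blood and take part in the deletion of self-reactive thymocytes. Mouse plasmacytoid cells carry less CD11c and MHC class II than conventional dendritic cells, and they share part of their gene expression with B cells and lymphoid progenitors.

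Library totals ran from 7227000 to 8428589 counts, and 1 count was worth 0.124 to 0.145 CPM (counts scaled to a common library size, here by the TMM method). In a principal component analysis the groups parted on component 1, and component 2 set TBI replicate 1 against TBI replicates 2 and 3. Core dendritic cell genes were present in every library. Of 6 such genes (Zbtb46, Flt3, Itgax, H2-Ab1, Cd74 and Batf3) 4 were lower after TBI and 2 were not called. The lower genes numbered 2 without TBI replicate 2 and 5 without TBI replicate 1. A fit with replicate number as a block called 1 higher. The median of the 6 was -0.61 on the log2 scale, and Flt3 changed by -3.15. Their summed level was 46585 to 46956 CPM in the untreated libraries and 32103 to 46834 CPM in the TBI libraries. Genes of high level weigh most in such a sum, so it does not measure the number of dendritic cells. The part of other cells in this sum was not tested.

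Of the 10 signature genes, 8 were lower after TBI and 2, Upb1 and Mzb1, did not pass the test (edgeR quasi-likelihood test, adjusted p under 0.05). Over all tested genes 23.1% were called, 9.79% as lower. None of the 10 was higher by edgeR, at an unadjusted p under 0.05 (0 genes), by DESeq2 (0) or by limma-voom (0). The estimated fall was 4-fold or more for all 8, as for 2.57% of all tested genes, but the 95% intervals of Ly6d (from 3.01-fold) and Lag3 (from 3.17-fold) start below that size. Without TBI replicate 3 the log2 fold change of Ly6d was -1.88, short of 4-fold. In these 8 the TBI libraries all lay below both untreated libraries, as in 28.3% of tested genes, while the groups overlapped for the other 2. The median log2 fold change was -2.60 over the 10 genes and -0.01 over all tested genes. The signature had 8 lower genes in each of the 14 alternative settings tried, TBI replicate 1 left out among them.

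**Figure D1:**
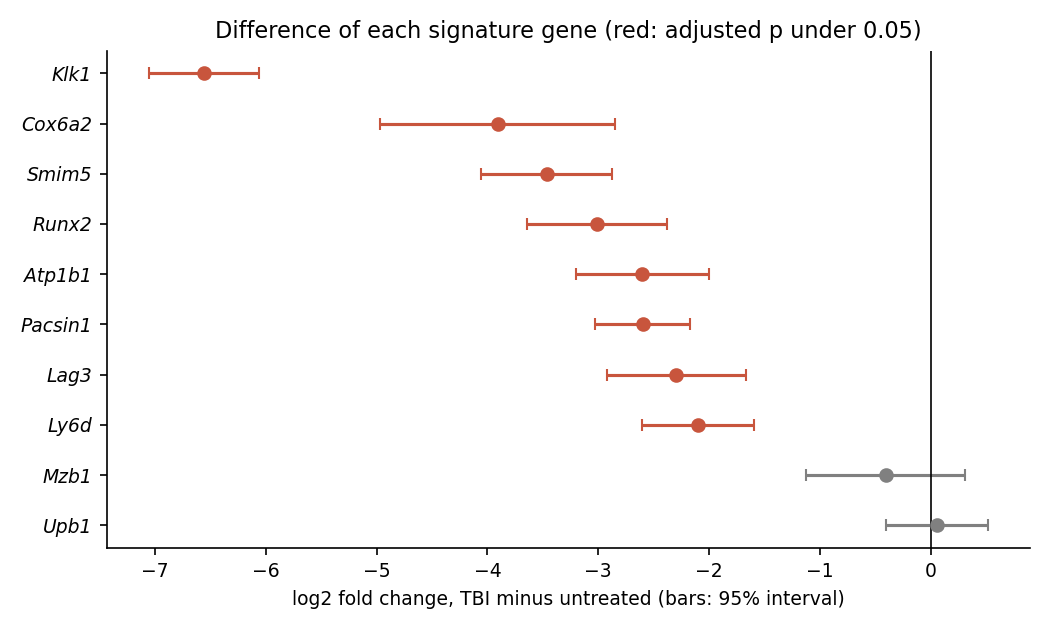
Log2 fold change (TBI minus untreated, x axis) of each signature gene with its 95% interval from the edgeR fit; red marks an adjusted p under 0.05. The estimates run from -6.56 for Klk1 to -2.10 for Ly6d among the called genes, and the intervals of Mzb1 and Upb1 include 0.

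Klk1 had the largest fall. It encodes tissue kallikrein, a secreted serine protease that cuts kininogen. Both untreated libraries were high, at 285 and 279 CPM (2303 and 2203 counts), and the TBI libraries held 2.03, 3.04 and 3.79 CPM (14, 24 and 29 counts). All TBI libraries lay far below both untreated libraries. The log2 fold change was -6.56 ± 0.22 (SE; edgeR adjusted p = 3.01e-06), or 94.2-fold lower with a 95% interval of 66.6-fold to 133-fold. Klk1 ranked the 23rd among 12046 tested genes from the most lowered. In GRCm38 (mm10) it lies on chromosome 7, 44225360 to 44229618, plus strand, and it belongs to a cluster of related kallikrein genes. Of its distinct 50-base words in the GENCODE M21 transcripts, 24.0% also occur in transcripts of 13 other genes, all of them kallikrein copies. How such reads were counted is not given in the sources used here, and their part in the counts was not tested.

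Promoter sequence was looked up by symbol for the signature genes except Mzb1, which was left out of the search. It was matched for 5 of the 10 genes, Klk1, Pacsin1, Atp1b1, Upb1 and Runx2. The windows ran from 250 bases before to 50 after the start (RefSeq, GRCm38.p6). The windows of 3 genes that fell and of Upb1, which did not, are printed to compare which of them hold the letters that TCF4 and RUNX factors read. They are chr7:44225110-44225409 (Klk1, plus strand), chr17:27684989-27685288 (Pacsin1, plus strand), chr17:44814578-44814877 (Runx2, minus strand) and chr10:75406661-75406960 (Upb1, plus strand). Capitals mark E-boxes (CANNTG, the same on both strands) and RUNX words (TGTGGT or its complement ACCACA), the start is at base 251, and bases are counted from 1 at the 5′ end.
Klk1: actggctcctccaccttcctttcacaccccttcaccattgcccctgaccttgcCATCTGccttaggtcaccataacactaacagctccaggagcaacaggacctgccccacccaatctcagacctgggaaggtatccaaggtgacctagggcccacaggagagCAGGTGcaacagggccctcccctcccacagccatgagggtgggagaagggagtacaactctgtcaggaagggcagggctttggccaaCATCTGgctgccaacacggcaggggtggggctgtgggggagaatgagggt
Pacsin1: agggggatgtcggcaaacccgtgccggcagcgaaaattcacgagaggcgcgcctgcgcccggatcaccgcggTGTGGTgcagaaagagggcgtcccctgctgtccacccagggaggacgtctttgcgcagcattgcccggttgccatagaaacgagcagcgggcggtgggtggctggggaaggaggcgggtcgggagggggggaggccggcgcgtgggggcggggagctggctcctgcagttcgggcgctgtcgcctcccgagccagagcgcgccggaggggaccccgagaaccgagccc
Runx2: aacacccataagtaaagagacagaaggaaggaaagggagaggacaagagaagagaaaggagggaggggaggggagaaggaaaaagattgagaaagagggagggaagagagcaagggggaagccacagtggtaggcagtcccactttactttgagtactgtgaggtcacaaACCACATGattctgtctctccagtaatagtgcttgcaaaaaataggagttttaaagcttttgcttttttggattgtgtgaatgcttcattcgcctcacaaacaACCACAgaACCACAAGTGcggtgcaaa
Upb1: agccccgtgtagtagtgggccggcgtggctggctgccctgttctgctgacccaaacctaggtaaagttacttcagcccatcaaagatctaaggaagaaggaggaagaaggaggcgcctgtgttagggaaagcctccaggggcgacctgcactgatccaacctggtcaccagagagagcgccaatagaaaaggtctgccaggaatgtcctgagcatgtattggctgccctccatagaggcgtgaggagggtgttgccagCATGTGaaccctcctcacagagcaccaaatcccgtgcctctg

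The Klk1 window held 3 E-boxes, at bases 54 to 59, 164 to 169 and 251 to 256, and the middle one reads CAGGTG. Of 32851 promoter windows of this length, 17.6% held at least 3 E-boxes and 20.2% held CAGGTG or its complement CACCTG. Runx2 held 3 RUNX words, at bases 171 to 176, 274 to 279 and 282 to 287, and 0.183% of windows (60) held as many. The first and the last of these overlap the E-boxes of Runx2 at bases 173 to 178 and 286 to 291. Pacsin1 held 1 RUNX word, as at least 1 was found in 16.8% of windows, and no E-box, which 72.3% of windows hold. Upb1 held 1 E-box, and the Atp1b1 window held neither word. The PU-box letters GAGGAA (28.3% of windows) occurred in the Upb1 window, and an IRF motif that was also searched (3.44%) occurred in none of the 5. Gene-level counts do not tell which start a gene used, and a match of letters is not a bound site.

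Ly6d, Lag3 and Smim5 encode membrane proteins. LY6D is a small lipid-anchored surface protein that also marks lymphoid progenitors turning to the B lineage. Its untreated libraries held 543 and 498 CPM, and the TBI libraries 140.2, 141 and 83.3 CPM. TBI replicate 3 was the lowest, and the TBI libraries stood at 26.9%, 27.2% and 16.0% of the untreated mean, with no overlap. Ly6d changed by a log2 fold of -2.10 ± 0.22 (edgeR adjusted p = 2.89e-04), the smallest fall among the 8 called genes.

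LAG3 is an inhibitory receptor for MHC class II, found on activated T cells and natural killer cells as well as on plasmacytoid cells. Lag3 had 24.8 and 21.0 CPM in the untreated libraries and 5.79, 3.80 and 4.45 CPM in the TBI libraries. Here TBI replicate 1 was the highest of its group, and the counts were low, at 201 and 166 against 40, 30 and 34. Lag3 fell without overlap, with a log2 fold change of -2.29 ± 0.27 (edgeR adjusted p = 5.81e-04). Smim5, which encodes a small integral membrane protein, had 107 and 105 CPM in the untreated libraries and 6.51, 12.8 and 9.28 CPM in the TBI libraries. Its untreated libraries nearly coincided, and its log2 fold change was -3.46 ± 0.26 (edgeR adjusted p = 4.26e-05). Smim5 lies on chromosome 11, 115899966 to 115906269, and overlaps Recql5 on the opposite strand, which had 211 and 193 counts against 25, 97 and 158 and did not pass (-1.04 ± 0.53, edgeR adjusted p = 0.201).

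**Figure D2:**
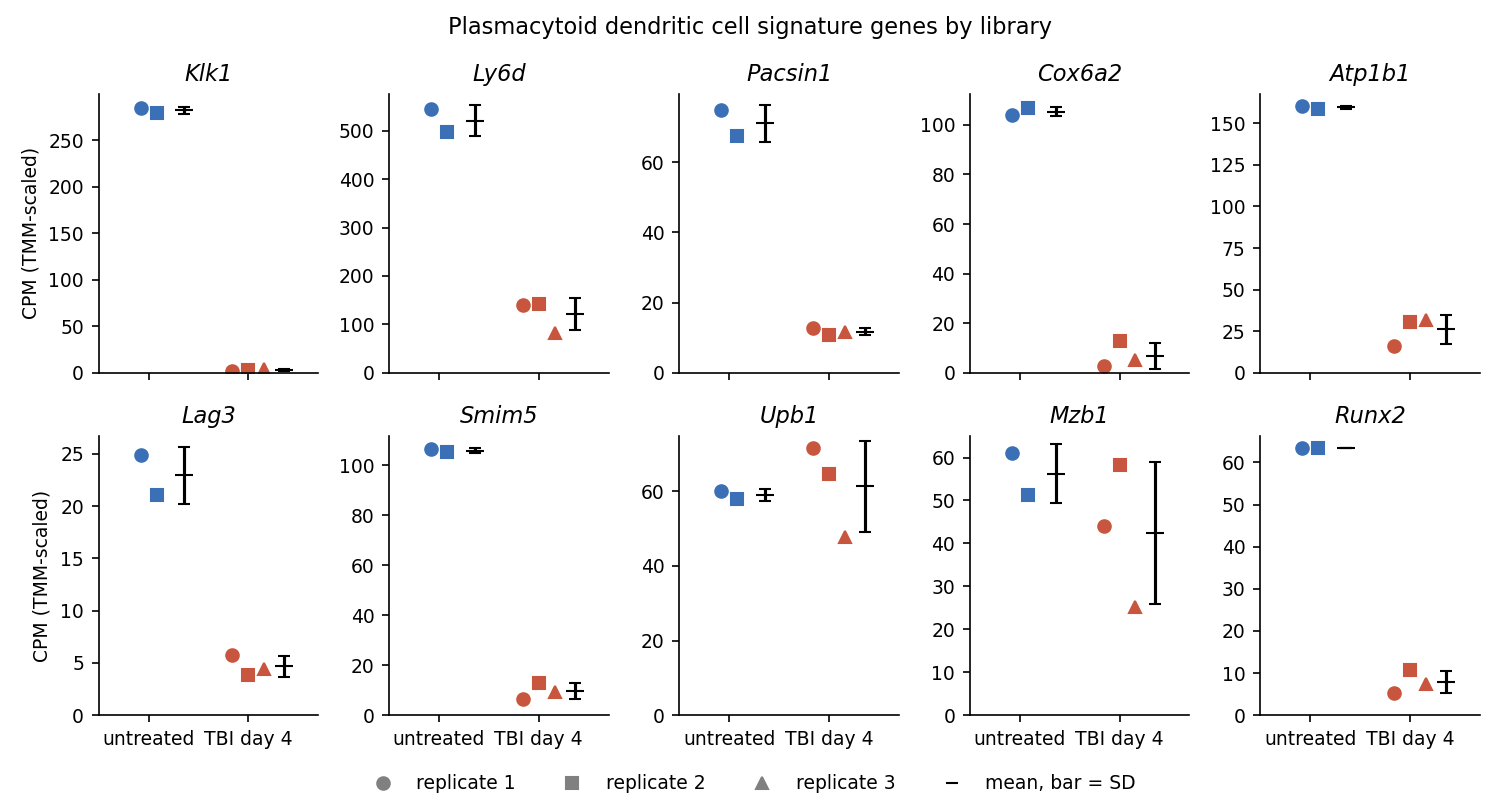
Level of each signature gene in CPM (y axis, from 0, own scale per gene) in the 2 untreated (blue) and 3 TBI libraries (red), with the mean and SD in black; symbols give the replicate. In 8 panels every red point lies below both blue points, and in those of Upb1 and Mzb1 the groups overlap.

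Atp1b1 and Cox6a2 serve ion transport and respiration. ATP1B1 is the beta 1 subunit of the sodium-potassium pump, which it helps to reach the plasma membrane. Atp1b1 had 160.3 and 159 CPM in the untreated libraries and 16.2, 30.4 and 32.0 CPM in the TBI libraries, where replicate 1 was the lowest. The groups did not overlap, and the log2 fold change was -2.60 ± 0.26 (edgeR adjusted p = 2.20e-04). Of its 50-base words 15.8% also occur in transcripts of Nme7, the neighbour on the opposite strand, which had 62 to 71 counts in every library.

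COX6A2 is the heart and skeletal muscle form of subunit 6A of cytochrome c oxidase, the last complex of the respiratory chain. Cox6a2 had 104 and 107 CPM (841 and 843 counts) in the untreated libraries and 2.75, 12.7 and 5.36 CPM (19, 100 and 41 counts) in the TBI libraries. The TBI libraries thus differed among themselves by 4.61-fold, the widest spread of the 10 genes, and still lay below both untreated libraries. Cox6a2 had a log2 fold change of -3.91 ± 0.46 (edgeR adjusted p = 5.40e-04). Without TBI replicate 2, which held the most counts of the TBI libraries, it was -4.68. Cox6a2 lies on chromosome 7, 128205435 to 128206387. It overlaps the integrin gene Itgad on the opposite strand, which was called lower at a log2 fold change of -1.05 ± 0.32 (edgeR adjusted p = 0.0492), and 3.33% of the 50-base words of Cox6a2 occur in Itgad transcripts.

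Upb1 encodes beta-ureidopropionase, the enzyme of the last step of pyrimidine breakdown. Its level was 60.1 and 57.8 CPM in the untreated libraries and 71.6, 64.6 and 47.9 CPM in the TBI libraries. TBI replicates 1 and 2 lay above both untreated libraries and TBI replicate 3 below them. For Upb1 the log2 fold change was 0.06 ± 0.20 (edgeR adjusted p = 0.864), with a 95% interval from -0.40 to 0.52. Upb1 lies on chromosome 10, 75401115 to 75441679, and overlaps Gucd1 on the opposite strand, which did not pass (0.51 ± 0.21, edgeR adjusted p = 0.123).

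Pacsin1 and Mzb1 act in vesicle traffic and secretion. PACSIN1 bends membranes during endocytosis, is best known from neurons, and takes part in the interferon response of plasmacytoid cells. Pacsin1 had 74.8 and 67.3 CPM in the untreated libraries and 12.7, 10.8 and 11.6 CPM in the TBI libraries. The TBI libraries differed by only 1.18-fold, the narrowest spread of the 10 genes, and the log2 fold change was -2.60 ± 0.19 (edgeR adjusted p = 3.40e-05). Pacsin1 lies on chromosome 17, 27655509 to 27711482, and no 50-base word of it occurs in another gene.

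MZB1 helps the endoplasmic reticulum chaperone GRP94 to assemble antibody chains in B cells and plasma cells. Mzb1 had 61.2 and 51.4 CPM in the untreated libraries and 44.1, 58.2 and 25.1 CPM in the TBI libraries. TBI replicate 2 lay between the untreated libraries, and TBI replicate 3 was below all other libraries. For Mzb1 the log2 fold change was -0.41 ± 0.31 (edgeR adjusted p = 0.397), with a 95% interval from -1.12 to 0.31. Of its 50-base words 53.5% also occur in an overlapping same-strand model named SPATA24, a symbol that the count table does not hold. The symbol Spata24 had 9 and 17 counts in the untreated libraries and 19, 15 and 15 in the TBI libraries. How reads of the shared words were counted is not given in the sources used here, and their part in the Mzb1 counts was not tested.

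RUNX2 is the transcription factor of bone formation, which in plasmacytoid cells supports development and the exit from bone marrow. Runx2 had 63.4 and 63.4 CPM in the untreated libraries and 5.35, 10.6 and 7.45 CPM in the TBI libraries. The untreated libraries were nearly equal, and TBI replicate 1 was the lowest of all. With no overlap between groups, the log2 fold change was -3.01 ± 0.28 (edgeR adjusted p = 1.33e-04). Runx2 lies on chromosome 17, 44495987 to 44814797, minus strand, and overlaps Supt3 on the opposite strand, which did not pass (-0.50 ± 0.30, edgeR adjusted p = 0.265).

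The TBI libraries did not rank the genes alike. TBI replicate 1 was the lowest of its group for 5 genes (Klk1, Cox6a2, Atp1b1, Smim5 and Runx2) and the highest for 3 (Pacsin1, Lag3 and Upb1). TBI replicate 2 was the highest for 5 (Ly6d, Cox6a2, Smim5, Mzb1 and Runx2), and TBI replicate 3 was the lowest for 3 (Ly6d, Upb1 and Mzb1). As a share of the untreated mean, Klk1 was at 0.719%, 1.08% and 1.35% in TBI replicates 1, 2 and 3. Smim5 was at 6.15%, 12.1% and 8.77%, and Runx2 at 8.44%, 16.8% and 11.8%. Pacsin1 was at 17.9%, 15.2% and 16.4%. Mzb1 ranged from 44.6% to 103% and Upb1 from 81.2% to 122%.

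**Figure D3:**
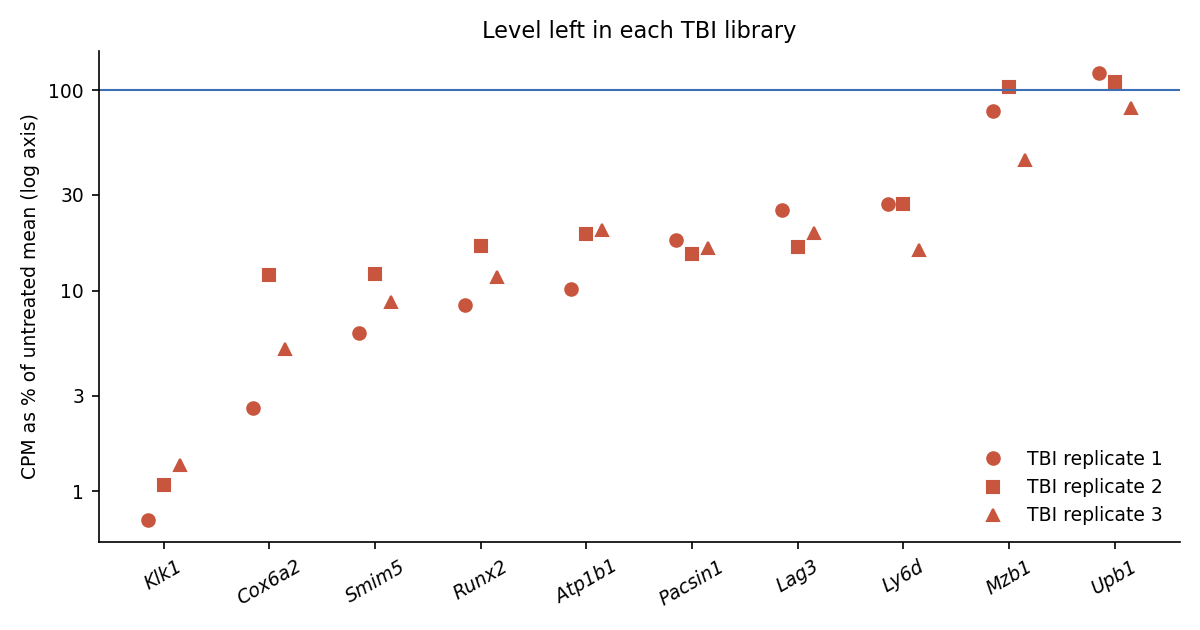
CPM of each signature gene in each TBI library as a percentage of the untreated mean (y axis, log scale); symbols give the TBI replicate and the blue line is 100%. Klk1 is at 0.719% to 1.35%, Pacsin1 at 15.2% to 17.9%, and Upb1 at 81.2% to 122%.

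Levels were set against each other between genes per kb of exon (GENCODE M21 basic gene models). In untreated cells the mean level was 699.6 CPM per kb for Ly6d, 295 for Klk1 and 155 for Cox6a2. Smim5 (64.2), Mzb1 (62.3) and Atp1b1 (61.8) followed, and their order is not resolved, since Mzb1 alone spanned 56.9 to 67.7. Upb1 (19.4), Pacsin1 (14.4), Lag3 (11.5) and Runx2 (8.94) were lowest. After TBI the order of mean CPM per kb was Ly6d (163), Mzb1 (47.0), Upb1 (20.2), Cox6a2 (10.2), Atp1b1 (10.2), Smim5 (5.78), Klk1 (3.10), Pacsin1 (2.38), Lag3 (2.34) and Runx2 (1.10). From Upb1 down to Lag3 each gene overlapped its neighbour in this order over the TBI libraries, while Ly6d and Mzb1 stood above the rest without overlap and Runx2 below them.

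Paralogues and partners of 4 signature genes were read beside them. Cox6a1, the form of subunit 6A made in most tissues, did not pass (0.24 ± 0.16, edgeR adjusted p = 0.338). Of its CPM per kb together with Cox6a1, Cox6a2 held 24.2% and 24.8% in untreated libraries and 0.595%, 3.37% and 1.62% in TBI libraries. Of 14 other cytochrome c oxidase subunit genes 13 were tested, and edgeR called 0. At an unadjusted p under 0.05 there were 4, all higher, DESeq2 called 3 higher and limma-voom 0, and without TBI replicate 1 or without TBI replicate 3 edgeR called 3 higher. The other beta subunit gene Atp1b3 rose (0.98 ± 0.13, edgeR adjusted p = 9.09e-04), as did Fxyd5 (1.24 ± 0.17), which encodes a pump regulator. Rises were called for 13.3% of all tested genes. Atp1b1 held 24.9% and 22.9% of the CPM per kb of the 3 beta subunit genes in untreated libraries and 1.47%, 2.98% and 3.29% in TBI libraries.

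Pacsin2, the widely expressed relative of Pacsin1, had a log2 fold change of 0.43 ± 0.19 (edgeR adjusted p = 0.152) and was called higher without TBI replicate 1 (0.59, adjusted p = 0.00164). The share of Pacsin1 among the PACSIN genes was 35.2% and 31.5% in untreated libraries and 8.15%, 4.93% and 5.07% in TBI libraries. Runx1 (0.34 ± 0.16, edgeR adjusted p = 0.166) and Cbfb (0.12 ± 0.13), the shared partner subunit of RUNX factors, did not pass, and without TBI replicate 1 edgeR called 1 gene of this group higher. Runx3, a factor of T cells and of several dendritic cell types, was called lower (-0.97 ± 0.19, edgeR adjusted p = 0.00800). It was not called without untreated replicate 1 (adjusted p = 0.0669) or untreated replicate 2 (0.0708). Runx2 held 22.0% and 21.7% of the CPM per kb of the 3 RUNX genes in untreated libraries and 3.95%, 6.24% and 4.03% in TBI libraries.

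**Figure D4:**
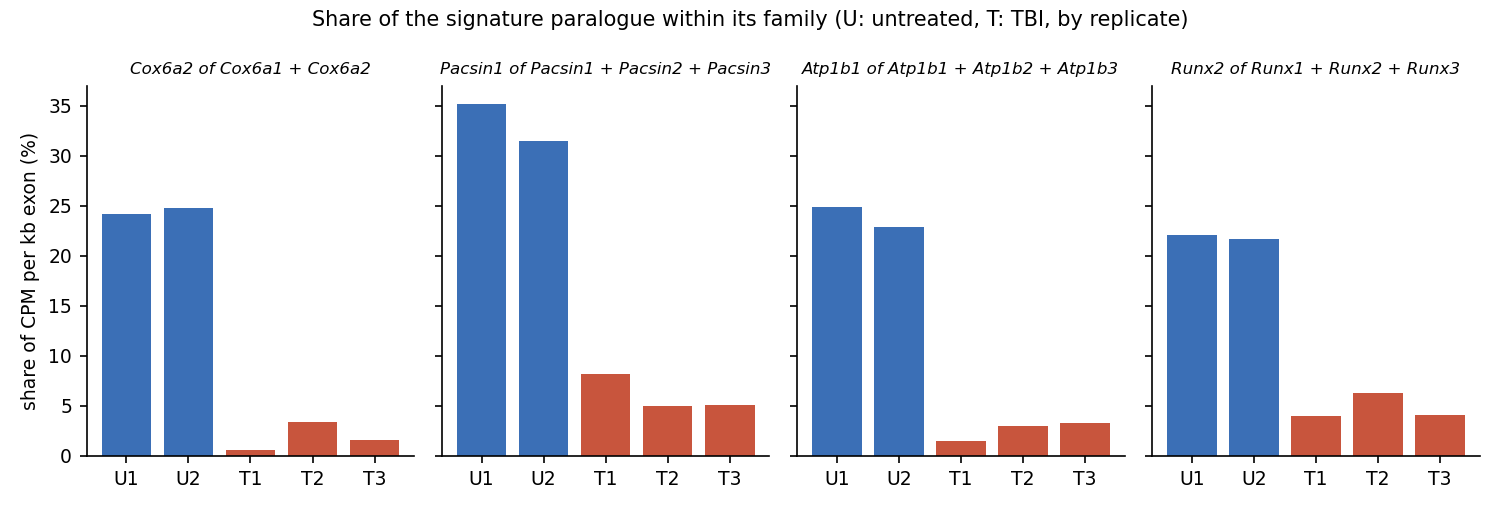
Share of a signature gene (y axis, percent of CPM per kb of exon) among its paralogues in each library (U untreated, T TBI, with replicate number). The bars stand at 21.7% to 35.2% in the untreated libraries and at 0.595% to 8.15% in the TBI libraries.

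One kallikrein copy fell together with Klk1. Klk1b27 had 277 and 266 counts in the untreated libraries and 4, 6 and 15 in the TBI libraries, a log2 fold change of -4.91 ± 0.40 (edgeR adjusted p = 7.34e-05). Without TBI replicate 3 it was -5.61. Its counts were 12.0% and 12.1% of those of Klk1 in the untreated libraries and 28.6%, 25.0% and 51.7% in the TBI libraries. Of the 50-base words of Klk1b27, 3.93% occur in Klk1, and the part of shared reads in its counts was not tested. Klk8, which is not one of the Klk1b copies, rose (1.36 ± 0.29, edgeR adjusted p = 0.0117), a call lost when either untreated library was left out. Klk1b11 had 17 and 11 counts against 8, 6 and 16 and did not pass.

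Other genes known from plasmacytoid cells were set beside the signature. Of 14 surface and sorting markers 12 were lower and 2 were higher, and the median was -1.97 on the log2 scale. The 4 with the smallest p were Klra17, which encodes the receptor Ly49Q (-4.61 ± 0.20), the receptor gene Cd300c (-5.17 ± 0.39), Tmem229b (-2.43 ± 0.20) and the gene of the collagen-binding inhibitory receptor Lair1 (-1.74 ± 0.17). Siglech, the surface lectin used to define mouse plasmacytoid cells, had 1074 and 1079.5 CPM in the untreated libraries and 15.2, 45.5 and 62.1 CPM in the TBI libraries (-4.71 ± 0.46, edgeR adjusted p = 1.81e-04). TBI replicate 1 was the lowest for Siglech, as it was for Klk1, Cox6a2, Atp1b1, Smim5 and Runx2. The 2 that rose were Il3ra (1.14 ± 0.25), the interleukin 3 receptor chain that marks human plasmacytoid cells, and Cd200r4 (2.14 ± 0.31), of which edgeR called 1 when either untreated library was left out.

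Of 9 transcription factor genes 5 were lower, 2 were higher and 2 (Irf7 and Cbfa2t3) did not pass. Tcf4 had 248 and 227 CPM in the untreated libraries and 55.6, 68.1 and 75.3 CPM in the TBI libraries (-1.84 ± 0.16, edgeR adjusted p = 9.61e-05). Spib (-3.42 ± 0.35), Bcl11a (-2.42 ± 0.29) and Irf8 (-2.01 ± 0.14) also fell. The 2 that rose were Id2 (0.84 ± 0.15), which encodes an inhibitor of E proteins such as TCF4, and Zeb2 (0.83 ± 0.21). The higher genes numbered 1 without untreated replicate 1, without TBI replicate 2, without TBI replicate 3 or with library size alone, and 0 without untreated replicate 2.

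Of 10 genes of nucleic acid sensing and the route to interferon, edgeR called 0 lower and 2 higher, Unc93b1 (0.54 ± 0.11) and Myd88 (0.64 ± 0.14). At an unadjusted p under 0.05 there were 0 lower, and DESeq2 and limma-voom called 0 lower each. With library size alone 1 was called lower. UNC93B1 brings TLR7 and TLR9 to endosomes and MYD88 is their adaptor, and both are used widely in myeloid cells. Neither rise was called when either untreated library was left out, and Unc93b1 was not called with library size alone. Tlr7 had -0.36 ± 0.22 (edgeR adjusted p = 0.275). Tlr9 had low counts, with 18 and 18 counts in the untreated libraries and 1, 23 and 9 in the TBI libraries, and did not pass.

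Lag3 was also read beside other inhibitory receptors and LAG3 ligands, and Mzb1 beside secretory chaperones. The ligand gene Fgl1 was not detected in any library. Of 7 tested inhibitory receptor and LAG3 ligand genes, Havcr2 (-1.67 ± 0.15) and Btla (-1.998 ± 0.19) were lower, and Ctla4 (2.08 ± 0.20), Cd160 (2.83 ± 0.48) and the galectin gene Lgals3 (1.32 ± 0.12) were higher. Of 9 secretory chaperone genes 3 were lower, Hsp90b1, which encodes GRP94 (-0.64 ± 0.12), Creld2 (-0.996 ± 0.18) and Hspa5 (-0.38 ± 0.12, edgeR adjusted p = 0.0499). Their lower count was 0 without untreated replicate 2, 6 without TBI replicate 1 and 7 with library size alone. Of 5 genes of pyrimidine metabolism 2 were tested and edgeR, DESeq2 and limma-voom called 0, as did an unadjusted p under 0.05. These were Uckl1 (0.05 ± 0.19), which encodes a uridine kinase-like enzyme of salvage and not of breakdown, and the uridine phosphorylase gene Upp1 (0.74 ± 0.63). Dpyd, which encodes the first enzyme of the breakdown route that UPB1 ends, had 2 counts in all libraries together.

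Several signature genes are also made by other cells that the gate could hold, and markers of those cells moved as well. Of 7 tested B cell markers 6 were higher and 1 (Fcrla, also a plasmacytoid cell gene, -2.53 ± 0.31) was lower. The higher B cell markers numbered 5 without TBI replicate 2 or without TBI replicate 3. The summed level of all 8 B cell markers was 197 to 209.6 CPM in the untreated and 304 to 450.0 CPM in the TBI libraries, with Pax5 at 0 counts in both untreated libraries. Of 8 plasma cell markers 3 were higher (Jchain, Sdc1 and Tnfrsf17), 1 (Txndc5) was lower and 4 did not pass, and their sum went from 896 to 922 CPM untreated to 943 to 2348 CPM after TBI. Jchain, the joining chain of IgM and IgA, had 32.6 and 34.6 CPM in the untreated libraries and 1406, 147 and 578 CPM in the TBI libraries. B cells and plasma cells make Mzb1, and Ly6d is found in B lineage cells. The part of these cells in the values of Mzb1 and Ly6d was not tested.

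Lag3 is shared with T cells and natural killer cells. Of 9 T cell markers 4 were lower, 1 (Cd3g) was higher and 4 did not pass, with a summed level of 1715 to 1974 CPM untreated and 1314 to 1519 CPM after TBI. The T cell rise was not called without untreated replicate 1, without untreated replicate 2, without TBI replicate 3, with upper quartile scaling or with library size alone. Of 8 natural killer cell markers 7 were higher and 1 did not pass, and their sum went from 78.6 to 83.9 CPM untreated to 523 to 846 CPM after TBI. All 9 macrophage markers were higher, with sums of 3169.7 to 3925 CPM untreated and 36435 to 44165 CPM after TBI. All 6 type 1 dendritic cell markers were lower (1471 to 1543 against 266 to 367 CPM), and 4 of 5 tested type 2 markers were higher (1009 to 1128 against 2819.6 to 3377 CPM). Thymic epithelial markers, of which 1 of 5 tested was lower, summed to 47.9 to 51.1 CPM untreated and 28.2 to 38.6 CPM after TBI. The lower calls of the plasma cell and thymic epithelial lists were lost when either untreated library, TBI replicate 2 or TBI replicate 3 was left out. Values in CPM are shares of each library, and the part of these shifts in the falls of the signature genes was not tested.

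**Figure D5:**
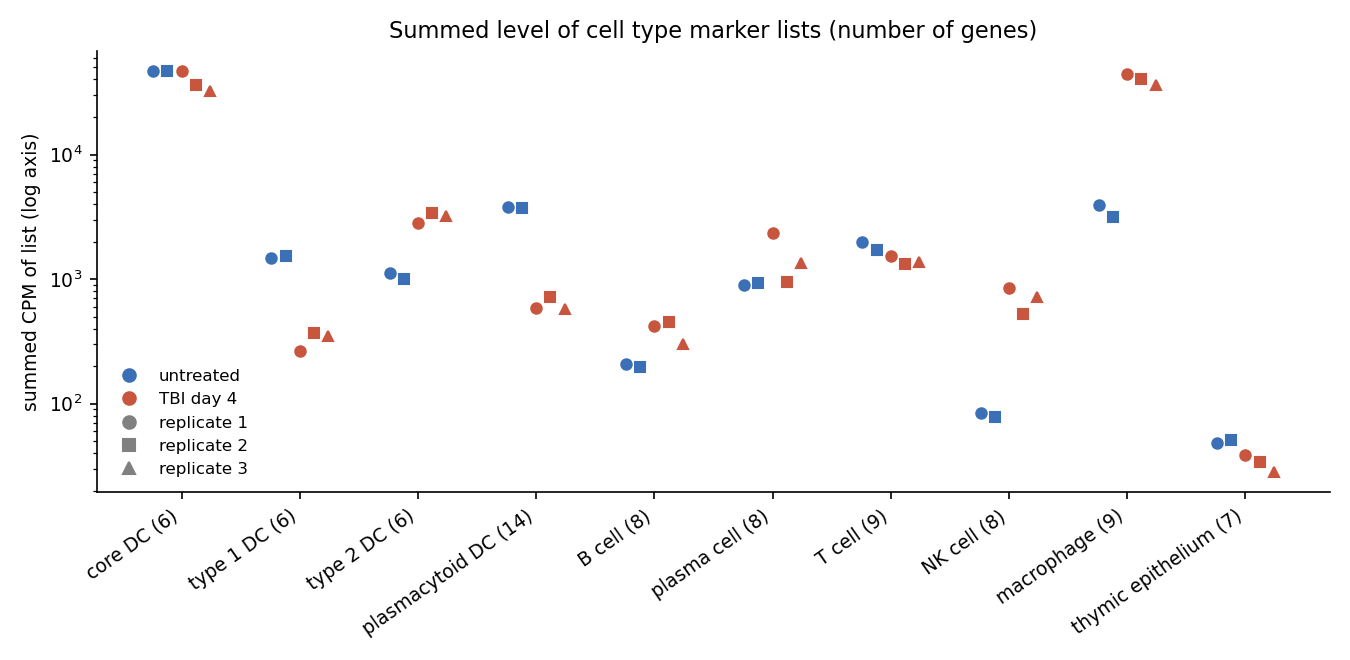
Summed CPM (y axis, log scale) of marker lists for cell types in each library, with the number of genes per list in brackets; blue is untreated, red is TBI, symbols give the replicate. The plasmacytoid list, which holds the 10 signature genes and 4 more, and the type 1 list are lower in all 3 TBI libraries, and the macrophage and natural killer lists are higher in all 3.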

How the data were processed

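The authors deposited whole-number read counts for each gene symbol, with no scaling. The authors aligned reads to mm10 with STAR 2.5.2a and counted them with featureCounts 1.6.0, per the submitters' processing notes. The SMART-Seq kit of the labels amplifies cDNA by PCR without molecular identifiers, and counting error alone would not cover that step. The errors printed here come from the edgeR fit and cover the spread between these libraries, which may be technical. The annotation, strand setting and handling of multiply mapped reads are not given in the sources used here. The 23 symbols turned into dates by a spreadsheet were kept in totals and tests.

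For the 5 libraries edgeR 4.0.16 (R 4.3.3) was run with TMM scaling, filterByExpr (minimum count 10, total 15), quasi-likelihood F-test on the group alone, and Benjamini-Hochberg adjustment over 12046 genes at 0.05. Log2 fold changes are TBI minus untreated, values after ± are SE, and intervals are 95%. The SE was worked back from the log2 fold change and its F statistic. Intervals were built on that SE with the t distribution. Functions were tested on simulated data. The alternatives comprised scaling by library size alone, by upper quartiles or by DESeq2 size factors, a stricter filter (1 CPM in 3 libraries, total 100) or none, the DESeq2 1.42.0 Wald test, limma-voom (limma 3.58.1), robust shrinkage, a replicate block, and each library left out.

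The signature genes and all lists were chosen with earlier results of these data known. Named were all 10 signature genes and, per list of related genes, up to 4 called genes of lowest p, or, with none called, the 2 of highest expression. Siglech, Tlr7, Tlr9, other marker genes, genes overlapping a signature gene and the members of small counts were named after their values were seen. Some genes of the pump list are not reported here. Figures used matplotlib 3.10.9.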

Additional observations from a re-analysis of the deposited data

How the results depend on the processing

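The count of signature genes called lower (8) and higher (0) was the same in all 14 alternative settings, as was the call of each of the 10. Upb1 changed sign, uncalled, to -0.17 with library size alone and to -0.067 without TBI replicate 1 (-0.067 to 0.21 over the libraries left out). The log2 fold change of Klk1 ran from -6.78 to -6.36 and that of Mzb1 from -0.70 to -0.13. Over all genes, 1179 lower and 1599 higher became 2129 lower and 1241 higher with library size alone, which moved the median log2 fold change from -0.01 to -0.23. Leaving out each library gave 423 to 1780 lower and 810 to 2148 higher genes. The lowest counts came without untreated replicate 1 (423 and 815) or 2 (423 and 810), where the 1 untreated library left is taken to have the spread of the TBI group, and the highest without TBI replicate 1. Uckl1, a pyrimidine gene that was not called, changed sign to -0.17 with library size alone, to -0.094 with the replicate block and to -0.085 without TBI replicate 3 (-0.085 to 0.15 over the libraries left out). The cause of these changes was not tested. Deviations of same-numbered libraries from their group means correlated at -0.0160 and -0.00989. With 2 untreated libraries their deviations are mirror images (correlation -1). These values therefore cannot decide whether replicate numbers pair the libraries. With the replicate block 8 signature genes were lower and 0 higher, Ly6d was at -1.88 and Klk1b27 at -5.62. Over all genes the block gave 1284 lower and 1493 higher, and 4 cytochrome c oxidase genes were higher instead of 0. Replicate number 3 occurs only in the TBI group, so TBI replicate 3 adds nothing to the fold changes of the block. They lay near those without TBI replicate 3, where Ly6d was at -1.88 and Klk1b27 at -5.61. For 36 related genes, 467 values under the alternatives kept side and direction, 33 lost the call, 1 gained it and 3 changed sign. Low counts in the TBI libraries limit the precision of Klk1 (14 to 29), Cox6a2 (19 to 100) and Lag3 (30 to 40).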

Other observations

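Genes that plasmacytoid cells share with early lymphoid cells were also measured. Of 7 tested, 5 were lower and 2 (Il7r and Cd7) did not pass, while 0 were higher by edgeR, at an unadjusted p under 0.05, by DESeq2 and by limma-voom. Flt3, the cytokine receptor of dendritic cell progenitors, had 313 and 343 CPM in the untreated libraries and 34.7, 41.6 and 34.5 CPM in the TBI libraries (-3.15 ± 0.15, edgeR adjusted p = 5.41e-06). Dntt, the template-free polymerase of antigen receptor joining, had 239 and 249 CPM against 143, 149 and 142 CPM (-0.75 ± 0.12). Rag1, the recombinase gene that thymocytes also express, had 69.1 and 64.4 CPM in the untreated libraries and 1.01, 12.0 and 1.31 CPM in the TBI libraries (-3.77 ± 0.76, edgeR adjusted p = 0.00873). Without TBI replicate 2 the log2 fold change of Rag1 was -5.82. Rag2 did not move in this way, at -3.03 ± 0.63 with all libraries and -2.98 without TBI replicate 2. It was -2.55 without TBI replicate 1 and -3.83 without TBI replicate 3. TBI replicate 2, the highest for Rag1, was also the highest TBI library for Ly6d, Cox6a2, Smim5, Mzb1 and Runx2. It was not the highest for Klk1, Pacsin1, Atp1b1, Lag3 and Upb1. The lower genes numbered 3 without untreated replicate 1 or untreated replicate 2.

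Relatives of Ly6d moved in both directions. Of 6 tested LY6 family genes, Ly6a (-0.65 ± 0.19), Ly6i (-1.47 ± 0.41) and Ly6k (-1.19 ± 0.33) were lower and Ly6c1 (2.498 ± 0.62) was higher. Ly6c1 had 8 and 4 counts in the untreated libraries and 35, 27 and 34 in the TBI libraries. Without untreated replicate 1 or untreated replicate 2 edgeR called none of these 4, without TBI replicate 3 it called 0 lower, and without TBI replicate 2 it called 1 lower. No 50-base word of Ly6d occurs in another gene, so these relatives do not share such words with it.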
